A study of Mus musculus with 2 samples.

Results

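Forkhead transcription factors bind DNA through a winged-helix domain. FOXO1 and FOXO3 are held out of the nucleus when phosphorylated by the kinase AKT, downstream of the pre-B cell receptor and growth factor signals, and act in the nucleus when that signal falls. In early B cells FOXO1 is known to activate the recombinase genes and the receptor gene Il7r. FOXO3 is a close relative with partly overlapping functions, and FOXP1 belongs to another forkhead branch and is needed for early B cell development. Monomethylated lysine 4 of histone H3 (H3K4me1) is a mark of enhancers, poised or active, and of chromatin beside gene starts.

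The H3K4me1 regions described here are those that share at least 1 base with any of 3 windows set by position on the mouse build mm9 around the genes Foxo1, Foxo3 and Foxp1. The windows held 91 of the 48130 regions in the list: 29 in the Foxo1 window, 8 in the Foxo3 window and 54 in the Foxp1 window. The data were 1 chromatin immunoprecipitation library made with an antibody to H3K4me1 and 1 input library without antibody, both from bone marrow pre-B cells. The mice were RAG1-/- on the B6 (C57BL/6) background, carried a rearranged IgM transgene, were 6 to 14 weeks old and of both sexes. The library and its input share this genotype, so no recombination-competent cell was measured beside them, and any pooling of animals is not described in the labels. The H3K4me1 library held 50945360 tags, and the list carries only positions. Its score is 1 for every region, and no annotation of mm9 was used, so cell type markers could not be checked. The same gap means that exons, introns and gene starts could not be placed inside the windows. Each group is a single library, so nothing measures the spread between replicates and no p-value is given.

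Gene starts were compared by sequence instead. The RefSeq promoter table for build GRCm38.p6 matched all 3 genes and listed 5 starts for them: 1 for Foxo1, 1 for Foxo3 and 3 for Foxp1. The 250 bases before each start are printed 5′ to 3′ in the direction of transcription, with CpG dinucleotides in capitals, to show which kinds of start these loci hold. Foxo1 lies on the plus strand, Foxo3 and Foxp1 on the minus strand, and the Foxp1 starts are numbered in the direction of transcription. They were not placed on mm9, so no region is assigned to any of them.
Foxo1: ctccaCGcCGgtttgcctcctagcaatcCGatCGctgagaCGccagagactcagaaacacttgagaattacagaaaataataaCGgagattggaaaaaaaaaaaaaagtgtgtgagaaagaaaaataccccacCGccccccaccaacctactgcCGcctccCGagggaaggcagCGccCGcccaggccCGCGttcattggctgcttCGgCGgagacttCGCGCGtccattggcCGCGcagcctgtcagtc
Foxo3: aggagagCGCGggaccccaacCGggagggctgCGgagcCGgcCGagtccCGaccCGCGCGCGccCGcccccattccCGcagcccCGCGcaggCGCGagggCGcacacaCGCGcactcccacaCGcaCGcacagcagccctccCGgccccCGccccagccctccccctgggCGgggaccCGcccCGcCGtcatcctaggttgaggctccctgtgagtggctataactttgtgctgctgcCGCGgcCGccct
Foxp1 start 1: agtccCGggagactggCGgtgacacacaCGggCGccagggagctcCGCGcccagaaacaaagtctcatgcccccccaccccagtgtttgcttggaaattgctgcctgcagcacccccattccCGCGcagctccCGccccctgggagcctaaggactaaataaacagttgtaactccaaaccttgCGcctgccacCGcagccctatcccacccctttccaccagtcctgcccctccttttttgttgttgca
Foxp1 start 2: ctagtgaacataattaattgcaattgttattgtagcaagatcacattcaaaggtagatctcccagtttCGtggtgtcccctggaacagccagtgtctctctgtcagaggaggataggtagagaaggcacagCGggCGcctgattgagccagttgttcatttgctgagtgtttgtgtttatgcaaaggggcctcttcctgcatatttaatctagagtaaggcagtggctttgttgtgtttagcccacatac
Foxp1 start 3: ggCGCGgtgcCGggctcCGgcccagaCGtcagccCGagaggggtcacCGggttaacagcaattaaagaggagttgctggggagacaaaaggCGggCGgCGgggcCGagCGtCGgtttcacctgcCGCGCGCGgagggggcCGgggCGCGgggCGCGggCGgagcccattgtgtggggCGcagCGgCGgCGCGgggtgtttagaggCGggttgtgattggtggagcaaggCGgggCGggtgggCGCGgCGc

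The Foxo1 and Foxo3 starts and the third Foxp1 start were CpG-rich, and the second Foxp1 start was CpG-poor. The ratio of observed to expected CpG was 1.04 for Foxo1, with 20 CpG in 250 bases, and 0.88 for Foxo3, with 31. For Foxp1 it was 0.52 at the first start (11 CpG), 0.24 at the second (3 CpG) and 1.12 at the third (34 CpG). Over all 32851 promoters of the table the median was 0.37, and 34.0% reached 0.6. A pair of motifs was looked for on both strands, TGTTTAC as a forkhead core and CCCNNGGG as the core of the site of EBF1, a factor that specifies the B lineage. TGTTTAC was found in none of the 5 sequences and in 3.17% of all promoters. Only these exact letters were searched, so other forms of a forkhead site were not counted. CCCNNGGG was found 1 time each before the Foxo1 start, the Foxo3 start and the first Foxp1 start. It was found in neither of the other Foxp1 sequences, and in 11.8% of all promoters. The stretches with a match were 56, 76.4 and 60.8% GC, and those without were 45.2 and 74% GC. No promoters of like GC content were compared, and a longer form of the motif had been tried before this core. These matches describe letters in the printed stretch and were not related to any region.

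The Foxo1 window was the most densely marked of the 3. It runs over 300 kb of chromosome 3, from 51970000 to 52270000. Its 29 regions gave 96.7 regions per Mb (exact Poisson 95% interval 64.7 to 138.8, counting error only), beside 15.1 per Mb of the span of chromosome 3. They covered 103.2 kb, or 34.4% of the window, beside 3.18% of that chromosome. Over the span of all autosomes the density was 19.5 regions per Mb and the covered share 4.49%. Marked regions cluster along the genome, so this interval and those below are too narrow.

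The Foxp1 window had most regions and the most marked bases. It spans 760 kb of chromosome 6, from 98800000 to 99560000, and its 54 regions gave 71.1 per Mb (interval 53.4 to 92.7), beside 18.3 per Mb on chromosome 6. They covered 213.2 kb, or 28.1% of the window, 7.04 times the share of chromosome 6. The Foxo3 window, 240 kb on chromosome 10 from 41820000 to 42060000, held 8 regions at 33.3 per Mb (interval 14.4 to 65.7). Chromosome 10 had 21.1 per Mb, a value inside that interval. The regions covered 26.3 kb, or 10.98% of the window, beside 4.87% of the chromosome.

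Between the windows, the density at Foxo1 was 2.90 times that at Foxo3 (exact interval 1.29 to 7.34, counting error only) and that at Foxp1 was 2.13 times that at Foxo3 (1.01 to 5.19). Between Foxo1 and Foxp1 the ratio was 1.36, with an interval of 0.835 to 2.17. Clustered regions of 1 library are not independent counts, so these intervals are too narrow and do not decide whether any windows differ. By covered share Foxo1 stood 3.13 times and Foxp1 2.56 times above Foxo3. These ratios moved with the window edges. With each window 30 kb narrower on each side, the density ratio to Foxo3 was 1.97 for Foxo1 and 1.67 for Foxp1, and the ratio of covered share 2.07 and 2.05. With 50 kb more on each side the density ratios were 2.48 and 1.98 and the ratios of covered share 3.26 and 3.02. The covered share of Foxo1 over that of Foxp1 was 1.23 in the main windows, 1.007 in the narrower and 1.08 in the wider ones.

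**Figure D1:**
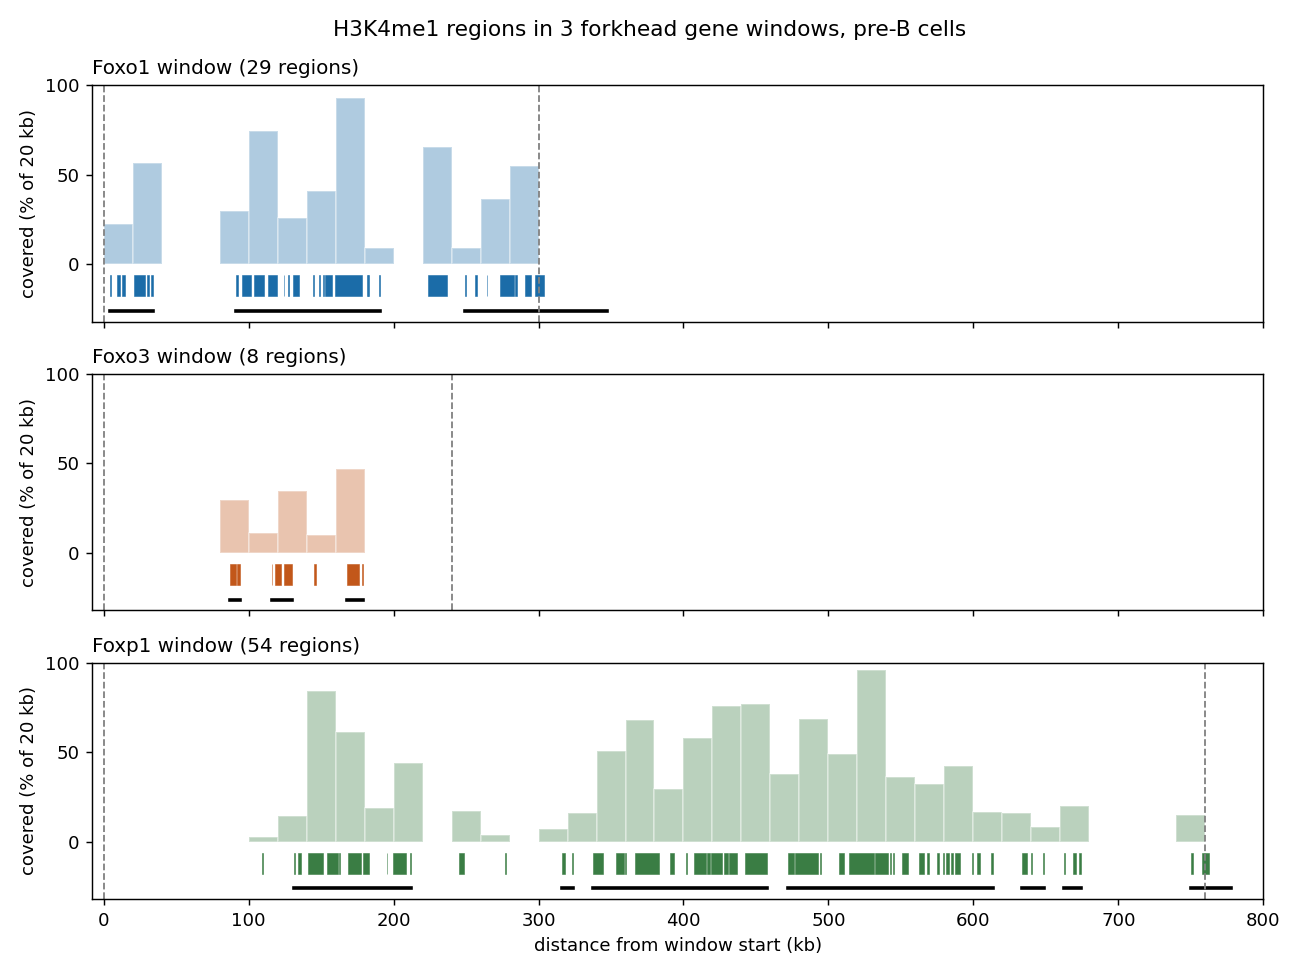
Each panel is 1 window on a common scale of kb from the window start, with the percent of each 20-kb bin covered by H3K4me1 regions as bars, the regions themselves as blocks below, and black lines under stitched domains of 2 or more regions (dashed lines, window edges). Foxo1 shows 3 marked stretches and a lone broad region, Foxo3 a marked middle between bare ends, and Foxp1 a marked block on each side of a sparse stretch.

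Each window was read against tiles of its own length, laid end to end over the 19 autosomes. Of 7995 tiles of 300 kb, 0.913% held at least the 29 regions of the Foxo1 window, and 0.513% were covered as much. With only regions of at least 1000 bases the first share was 3.64%, and 1.44% over tiles that hold a region. Of 3150 tiles of 760 kb, 2.41% held at least the 54 regions of the Foxp1 window, and 0.286%, or 9 tiles, were covered as much. The 1000-base minimum raised the first share to 4.001%. At Foxo3 26.3% of 9999 tiles of 240 kb held 8 regions or more and 14.7% were covered as much, so its count was common among tiles. Over tiles that hold a region the first share was 43.6%. The median tile held 3 regions at 300 kb, 2 at 240 kb and 10 at 760 kb. The median covered share of tiles was 1.26% at 300 kb, 1.03% at 240 kb and 2.21% at 760 kb. The windows were placed around genes and the tiles were not, and 36.4% of the 300-kb tiles held no region at all, so these shares are a description and no test. Tiles that overlap a gene window were kept among them.

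**Figure D2:**
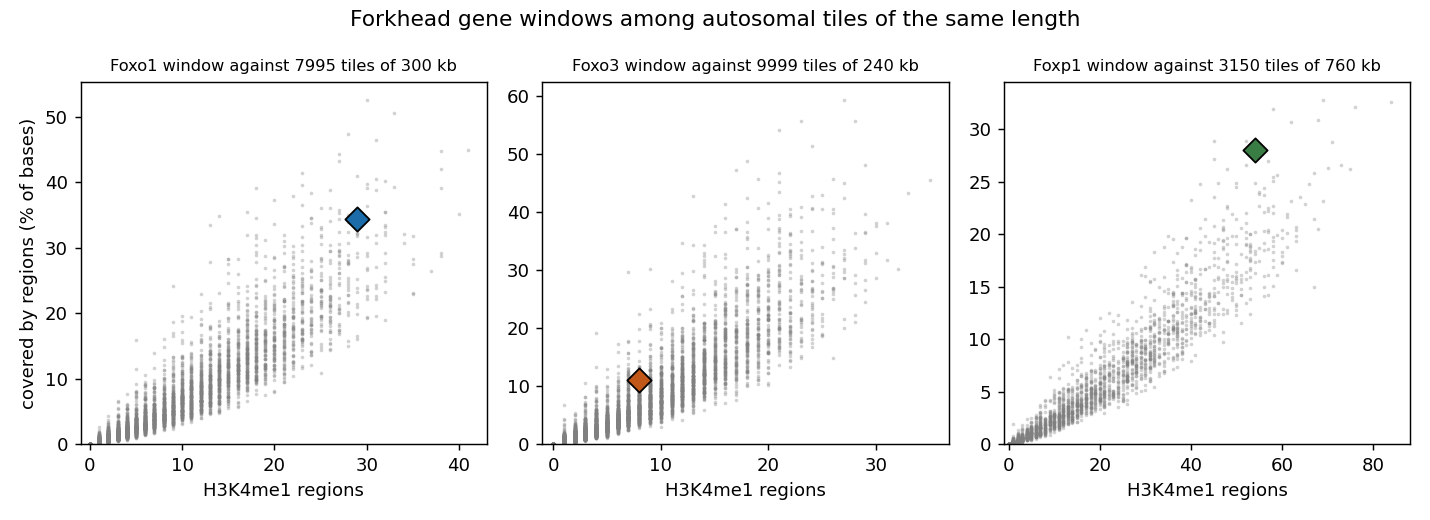
Each grey point is 1 autosomal tile of the window's own length, with its number of H3K4me1 regions on the horizontal axis and the percent of its bases covered on the vertical axis; the diamond is the gene window. Foxo1 (29 regions, 34.4%) and Foxp1 (54 regions, 28.1%) lie at the sparse upper end. Foxo3 (8 regions, 10.98%) lies above the median tile of 240 kb (2 regions, 1.03%), and 14.7% of those tiles were covered as much.

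Within the Foxo1 window the mark fell into 3 groups of regions and a lone broad one. The first region began at 51974466, after a bare stretch of 61.2 kb that reaches back past the window edge. From there 6 regions ran to 52004183 and covered 15.7 kb, or 53.0% of a 29.7-kb domain. A domain here is a run of regions with gaps of up to 12500 bases. The longest among these 6 was 7965 bases, from 51990680 to 51998644. A bare stretch of 57.0 kb followed, the longest inside the window.

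The leading domain, the one with most covered bases, ran over 99.1 kb from 52061211 to 52160340. It held 15 regions that covered 54.4 kb, or 54.9% of it, and ranked 130 by covered bases among the 20379 domains of the list. Its extent depended on the settings. At a gap of 5 kb the leading stretch was 52114253 to 52153264, with 27.8 kb covered and without the 3 regions named next. With regions of at least 1000 bases it was 52061211 to 52104856, with 24.8 kb covered and without the longest region. Near its start stood 3 regions of like length, 6313 bases from 52065290 to 52071602, 6833 bases from 52073885 to 52080717 and 6406 bases from 52083070 to 52089475. Further on came 5134 bases from 52122613 to 52127746 and then the longest region of the window, 19156 bases from 52129353 to 52148508. The 20-kb bin that this region fills was 92.5% covered, the highest of the 15 bins of the window.

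After 33.1 kb without a region stood a single region of 13084 bases, from 52193423 to 52206506. The gap behind it was 12.529 kb, just over the stitching limit, so it counted as a domain of its own. The last group began at 52219036 and carried on past the window edge to 52317551, with 13 regions over 98.5 kb. It was less filled, at 32.8%, and its regions of at least 5000 bases inside the window were one of 9964 bases, from 52243243 to 52253206, and one of 6039 bases, from 52267653 to 52273691, which crosses the edge. Of the 15 bins of 20 kb, 3 were empty and 5 were covered by 50% or more.

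The Foxo3 window was marked only in its middle. The first region started at 41907199, 87.2 kb into the window, at the end of a bare stretch of 97.4 kb that began before it. The last ended at 41999154, and the next region of the chromosome lay 156.8 kb further on, past the window. All 8 regions thus lay within 92.0 kb. Of 12 bins of 20 kb, 7 were empty and none was covered by 50%, the highest being 46.7%.

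The 8 Foxo3 regions formed 3 short domains and a lone region of 1963 bases, from 41964721 to 41966683. The first domain paired 3922 bases, from 41907199 to 41911120, with 1949 bases. The second held a region of 501 bases, one of 3723 bases from 41938299 to 41942021 and one of 4946 bases from 41944601 to 41949546. The leading domain, from 41987884 to 41999154, joined the longest region of the window, 8160 bases from 41987884 to 41996043, to one of 1179 bases and covered 9.34 kb, rank 2884 of 20379. A gap of 25 kb joined all 8 regions, with 26.3 kb covered. The longest gap between neighbours was 22.03 kb.

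In the Foxp1 window a first block of mark and a longer second one lay on either side of a sparse stretch. Nothing was marked over the first 109.5 kb of the window, part of a bare stretch of 113.1 kb. A lone region of 501 bases at 98909496 came first. The first block, from 98931080 to 99011648, held 10 regions that covered 44.5 kb, or 55.2% of its 80.6 kb. Its long regions were 10485 bases from 98940774 to 98951258, 7939 bases from 98953694 to 98961632, 8994 bases from 98968331 to 98977324 and 8462 bases from 98999866 to 99008327.

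The sparse stretch between 99011649 and 99137419 held 4 regions of 628 to 3432 bases, with bare gaps of 33.3, 28.2 and 39.2 kb before and between them. The second block then ran as 2 domains parted by a gap of 14.0 kb. The earlier, from 99137420 to 99257810, held 12 regions over 74.4 kb, or 61.8% of its 120.4 kb, and ranked 43 of 20379. It contained regions of 7215 bases (from 99137420 to 99144634), 5185 bases (99153728 to 99158912), 16364 bases (99166559 to 99182922), 7984 bases (99207499 to 99215482), 8017 bases (99218717 to 99226733), 5478 bases (99231450 to 99236927) and 15393 bases (99242418 to 99257810).

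The later domain, from 99271857 to 99413598, was the leading one, with 19 regions over 75.7 kb, or 53.4% of 141.7 kb, and rank 38. At a gap of 5 kb the leading stretch shrank to 99307215 to 99345496, with 32.1 kb covered, and at 25 kb it took in both domains of the second block, from 99116466 to 99474114, with 161.1 kb. Its first part was the more filled. A region of 15824 bases ran from 99277083 to 99292906, the longest of the window, 17199 bases, from 99313974 to 99331172, and one of 9341 bases from 99332006 to 99341346. The bin holding the last 2 of these was 95.8% covered. From 99350719 to 99413598 the domain was made of regions of 501 to 4073 bases.

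Past that domain the window thinned out. Another 6 regions of 672 to 2981 bases reached 99474114, followed by the longest inner gap of the window, 76.4 kb. A region of 828 bases and one of 4757 bases, from 99557882 to 99562638 and across the edge, closed it. Of 38 bins of 20 kb, 10 were empty and 9 were covered by 50% or more.

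Long regions made up a larger share at Foxo1 and Foxp1 than in the list as a whole. At Foxo1 9 of 29 regions (31.0%, Wilson 95% interval 17.3 to 49.2%) reached 5000 bases, and at Foxp1 14 of 54 (25.9%, 16.1 to 38.9%), beside 8.92% of all 48130 regions. At Foxo3 1 of 8 did (interval 2.24 to 47.1%), and 8.92% lies inside that interval. Regions of at least 10000 bases numbered 2 at Foxo1, 0 at Foxo3 and 5 at Foxp1, beside 2.15% of the list. The lengths nearest the 5000-base line were 4271 and 5134 at Foxo1, 4946 and 8160 at Foxo3, and 4757 and 5185 at Foxp1. Long regions held 74.8% of the covered bases at Foxo1, 67.5% at Foxp1 and 31.0% at Foxo3.

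The median length was 1344 bases at Foxo1 (quartiles 810 and 6039), 2843 at Foxo3 (1757 and 4178) and 2276 at Foxp1 (849 and 5078), beside 1497 over the list. At Foxo1 the lengths fell into a short set of 18 regions, up to 1957 bases, and a long set of 11, from 4049 bases. No Foxo1 region lay between these lengths, where 25.6% of all regions lie. This step was noticed after the lengths were seen. The shortest length, 501 bases, was taken by 4 regions at Foxo1 (13.8%), 1 of 8 at Foxo3 and 7 at Foxp1 (13.0%), near the 14.3% of the list.

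**Figure D3:**
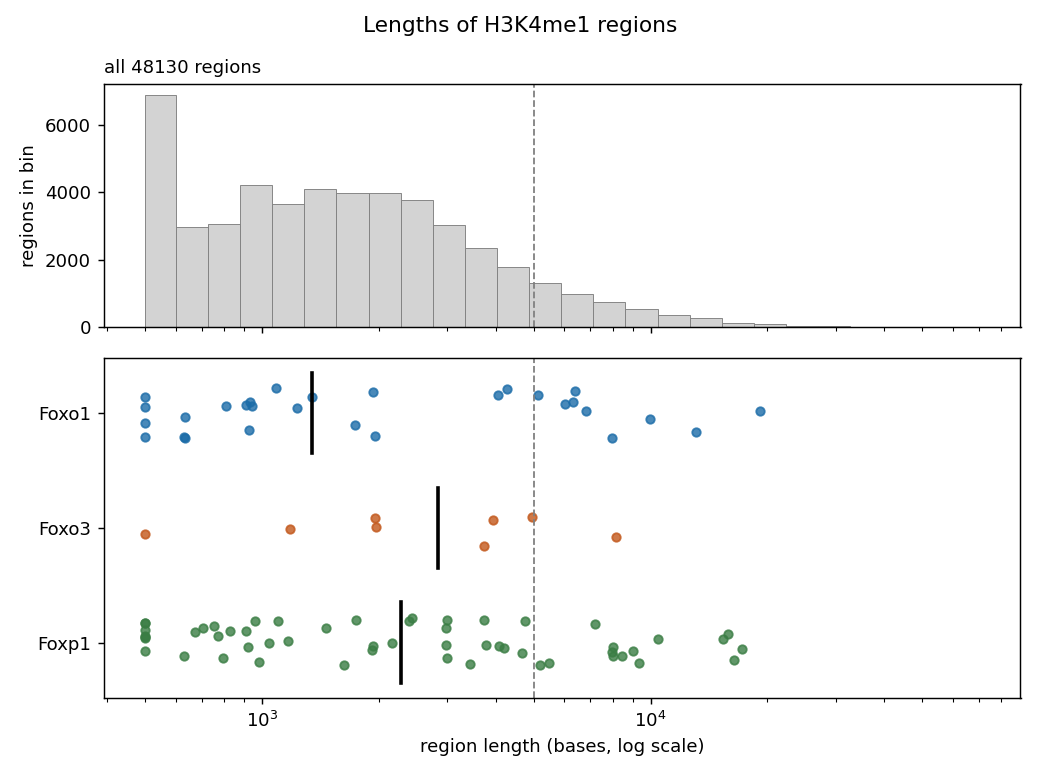
The upper panel counts all 48130 regions by length in bases (log axis) and the lower panel shows each region of the 3 windows as a point, with black bars at the medians and a dashed line at 5000 bases. Foxo1 points leave an empty stretch between 1957 and 4049 bases, and 9 Foxo1, 1 Foxo3 and 14 Foxp1 points lie right of the line.

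Long regions were also more frequent at Foxo1 and Foxp1 than in tiles at least as crowded as these windows. Such tiles held up to 41 regions at 300 kb and 84 at 760 kb, so they were not matched for region number. The 73 tiles of 300 kb with 29 or more regions had a median of 14.3% regions of at least 5000 bases (quartiles 9.38 and 20%, highest 30.3%), beside 31.0% at Foxo1. The 76 tiles of 760 kb with 54 or more regions had quartiles of 8.13 and 15.5%, beside 25.9% at Foxp1. No such tile reached the share of the Foxo1 or the Foxp1 window, but the margins were narrow: the highest 760-kb tile had 25.86% against 25.93%, less than 1 region apart. Tiles that overlap a gene window were not left out, so the highest tile may share regions with the window itself. Whether it does was not checked. At Foxo3, 959 of 2628 such tiles had at least its share. This comparison was chosen after the lengths were seen.

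With gaps across the window edges counted, regions lay closer to each other at Foxo1 and Foxp1 than at Foxo3. Over all gaps that touch a window, those across its edges included, the median was 3.18 kb at Foxo1 and 5.03 kb at Foxp1, beside 8.87 kb over the list. At Foxo3 it was 15.2 kb with the 2 edge gaps and 2.58 kb over the 7 gaps between its own regions. Between their own regions alone the median was 3.12 kb at Foxo1 and 5.02 kb at Foxp1. By that measure Foxo3 had the shortest gaps, so the order depends on the edge gaps. Of the gaps that touch a window, 25 of 29 at Foxo1, 4 of 9 at Foxo3 and 44 of 54 at Foxp1 were of up to 12500 bases, beside 57.7% of all gaps. Gaps under 1 kb inside the windows were 4 of 28 at Foxo1, 1 of 7 at Foxo3 and 10 of 53 at Foxp1. Of all gaps in the list, 11.9% were under 1 kb. The Foxp1 run of 5 regions from 99207499 to 99236927 was parted only by such gaps and one of 1.21 kb.

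The flanks differed between the genes. The 760 kb before the Foxp1 window held 6 regions, at 0.528% covered, and the 760 kb after it 23 regions, at 4.71%, beside 28.1% inside. Around Foxo1 the neighbouring stretches of 300 kb were marked as well, with 18 regions (12.7% covered) before and 20 (17.9%) after the window. At Foxo1 and Foxp1 the region that crosses the later window edge is counted both in the window and in the stretch after it. At Foxo3 the 240 kb before the window held more regions than the window itself, 17 against 8, at a like covered share of 11.5%, and the 240 kb after it held 3, at 2.29%. In the GRCm38.p6 gene order the nearest protein-coding genes are Maml3 and Cog6 on either side of Foxo1, Armc2 and Afg1l beside Foxo3, and Gm765 and Eif4e3 beside Foxp1. Which of these reach into the windows or their flanks on mm9 was not analysed here.

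The order of the list holds one more measure, looked at after the data were seen. Regions are not listed by position, and a region's place runs with its length (Spearman rho −0.97 across the 48130 regions of 1 library, which are not independent). What the authors sorted by is not given in the sources used here. Each region was set beside those within 5% of its own length. At Foxo1 15 of 29 regions stood before most regions of like length, at Foxo3 4 of 8, and at Foxp1 16 of 54, with 3 of its 14 regions of at least 5000 bases among them.

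Both ends of that order were counted over all members. Ahead of over 95% of regions of like length stood 2 regions at Foxo1, 1 at Foxo3 and 1 at Foxp1, and ahead of under 5% stood 0, 1 and 10. Over the whole list about 5% of regions fall in each of these ends by construction. The longest region of the Foxo1 window was number 141, ahead of 53.7% of 54 regions of like length. That of Foxp1 was number 339, ahead of 30.5% of 59, and that of Foxo3 number 1578, ahead of 61.3% of 377.

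**Figure D4:**
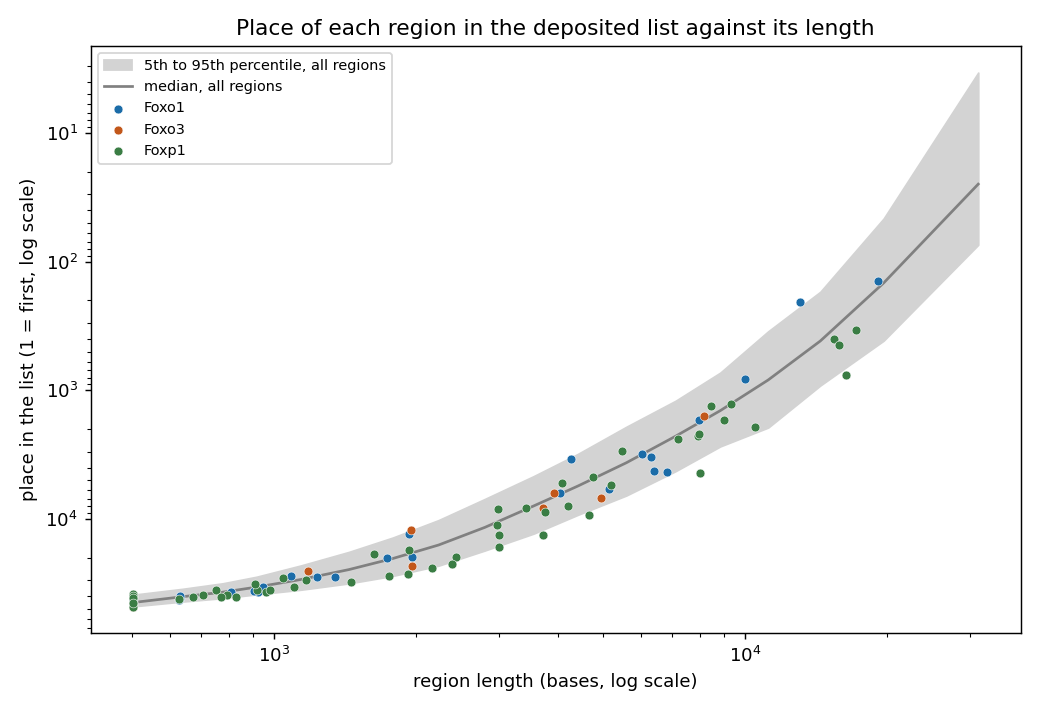
Place in the deposited list (log axis, first at the top) against region length in bases (log axis) for the regions of the 3 windows, with the median and the 5th to 95th percentile of all regions by length in grey. Most Foxp1 points lie below the median line (38 of 54 came after most regions of like length), and Foxo1 points lie on both sides of it.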

How the data were processed

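The authors mapped reads to mm9 and called regions with Bowtie 0.12.9 and HOMER 4.7, per the submitters' processing notes. Per the file headers, findPeaks ran in histone style on both strands. It used peaks of 500 bases, a fragment length of 106, at least 26 tags per peak and 4-fold over input, and stitched peaks into regions. Stitching sets region lengths and splits, so both depend on these settings. In the list deposited by the authors every score equals 1, so scores were not used. Libraries took 1 to 10 ng of DNA, 18 PCR cycles and single-end reads of 100 bases, per the labels' protocols.

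Positions are printed counting from 1, and covered bases were clipped to the window. Tiles ran from the first region of each autosome, in whole tiles only. Poisson intervals are exact and shares have Wilson intervals, both at 95%; they cover counting error only, and PCR reads are not independent molecules. Stitching and tile counts were tested on simulated data. Regions named with positions are those of at least 5000 bases (in Foxo3, the 5 longest), the first and last of a window, and its leading domain and longest gap. Other single lengths and positions were added after their values were seen. Members and lists were chosen with earlier results of these data known. Alternatives covered length minimum, overlap rule, window edges, tiles and stitching gap. A longer form of the EBF1 motif was tried before the core. The planned family list was not used, because no protein table was at hand. Computation used scipy 1.17.1, pandas 2.3.3 and numpy 2.4.6 under Python 3.11.15.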

Additional observations from a re-analysis of the deposited data

How the results depend on the processing

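With 1 library per group, no result has a replicate check, and depth per region was not used here. Restricting the list to regions of at least 1000 bases left 17 regions at Foxo1 (main value 29), while Foxp1 kept 36 and Foxo3 7. Covered percent under that minimum was 31.6 at Foxo1, 10.8 at Foxo3 and 26.4 at Foxp1. Counting by midpoint gave 33.6% at Foxo1 and 27.8% at Foxp1. Windows 30 kb narrower on each side gave 30.3, 14.6 and 30.04% for Foxo1, Foxo3 and Foxp1, and windows 50 kb wider gave 28.9, 8.86 and 26.7%. The share of tiles with at least as many regions moved from 0.913 to 3.64% at Foxo1, from 26.3 to 20.1% at Foxo3 and from 2.41 to 4.001% at Foxp1 under the 1000-base minimum. By covered bases it was 0.513, 14.7 and 0.286%, and over tiles with at least 1 region, an alternative added after seeing the data, 1.44, 43.6 and 3.08%. On chromosome 10 alone Foxo3 had 27.3%. The leading domain depended on the stitching gap. At 5 kb it covered 27.8 kb at Foxo1 and 32.1 kb at Foxp1, at 2.5 kb (added after seeing the data) 26.1 and 28.4 kb, and at 25 kb 26.3 kb at Foxo3 and 161.1 kb at Foxp1, where 39 regions joined from 99116466 to 99474114. Regions of at least 1000 bases gave 24.8 kb at Foxo1 and 52.7 kb at Foxp1, since lost short regions widen gaps past the limit. Foxp1 stayed above Foxo3 in covered percent under each alternative run. Foxo1 stayed above Foxp1 as well, but with windows 30 kb narrower on each side the 2 were nearly equal, at a ratio of 1.007. No paired analysis was possible because there is 1 library per group.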
